A study of Bos taurus with 4 samples.

Results

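The genes described are those of the complement system that restrain it, start its lectin pathway or build its terminal complex, namely *SERPING1*, *CFI*, *CLU*, *CD46*, *CD55*, *CD59*, *MASP1*, *C6* and *C7*. They were chosen by name, as all non-control probes of the array whose reference accession belongs to one of these bovine genes. The choice gave 9 of 11054 named genes and 22 of 43653 non-control probes. RNA of the semitendinosus, a muscle of the hind leg, came from 4 Hereford (HER, a beef breed) and 4 Holstein-Friesian (HF, a dairy breed, the study's control) bulls, all aged 15 months and given no experimental treatment by the labels. Each of the 4 dual-colour arrays held the RNA of 1 bull of each breed, one labelled with the dye Cy3 and the other with Cy5. Fat and connective tissue were trimmed from the samples, which came from the middle of the muscle of slaughtered bulls, and each breed was represented by these 4 bulls alone.

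Complement is a set of plasma and membrane proteins that cut and activate each other on the surface of microbes and damaged cells. The classical pathway starts from antibody or other ligands bound by C1q, the lectin pathway from sugars bound by collectins and ficolins, and the alternative pathway from a slow spontaneous turnover of C3. All of them lead to the cleavage of C3 and then to a pore of terminal components in the target membrane. Host cells are spared because soluble and membrane-bound regulators take the active enzymes apart or block the pore. The liver makes most of the plasma proteins, while fibroblasts, macrophages and other cells of a tissue also express many of these genes.

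All signed values below are log2 ratios of the Cy5 over the Cy3 signal of the same array, averaged over the arrays. By the dye labels Cy5 was HF and Cy3 was HER on every array, whereas the labels also mention a swap of the dyes and the study's tables run with Cy5 as HER, so the signs given by the dye labels oppose those of the study and no breed is named for a direction. As the arrays shared 1 orientation of the dyes, a difference between breeds and a difference between dyes cannot be told apart.

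The median signal of a spot was 129 to 160.5 in Cy5 and 77 to 138 in Cy3, over a local background of 37 to 41. Between 76.7% and 82% of probes were well above background in Cy5 and 65.1% to 76.3% in Cy3, and 0 spots were saturated. Log2 ratios of the array pairs correlated at r = 0.33 to 0.62 over the tested probes, which are not independent replicates. Array 1 stood apart in the slow-fibre markers *TNNT1* and *MYH7*, with log2 ratios of 2.02 and 2.16 there and -1.21 to -0.85 and -1.02 to -0.04 on the other arrays. The other 7 tested markers of muscle fibres ranged from -1.16 to 0.67 on array 1. All 9 tested fibre markers, such as *ACTA1* and *CKM*, were well above background in both dyes on all 4 arrays, as the tissue label asks. In limma 0 of them were called, and 3 were at an unadjusted p under 0.05, where 24.7% of all tested probes passed. A probe was tested where the same dye was well above background on all 4 arrays, and called where its adjusted p in limma (Benjamini-Hochberg, over all 32606 tested probes) was under 0.05.

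Of the 22 probes, 17 were tested, and all 9 genes had at least 1 of them. The inhibitor gene *SERPING1* on its 4 probes and the lectin pathway protease gene *MASP1* on its only probe were higher in Cy5, by 1.75-fold to 2.44-fold. These were the only calls among the 17 probes, 29.4% of them, where 3.32% of all tested probes were called and 1.97% were called higher. Since 4 of the 5 calls were probes of 1 gene, they stand for 2 genes of 9. None was called lower in limma, and of the 11 probes at an unadjusted p under 0.05, a share of all tested probes of 24.7%, 0 were below 0. The median log2 ratio was 0.71 over the 17 probes, from -0.35 to 1.29, and 0.01 over all tested probes, with quartiles of -0.13 and 0.16. With each gene taken as the mean of its tested probes the median fell to 0.21, and over all 22 probes without a filter it was 0.25.

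By the study's criterion of an unadjusted p of at most 0.05 and a fold change of at least 1.3, applied to the limma fit, 10 of the 17 probes were higher and 0 lower, against 14.4% of all tested probes, 7.96% higher and 6.48% lower. These were the 5 called probes, the 4 of *CLU* and 1 of *C6*. With the methods' t-test at the same criterion 6 of the 17 passed, all of them higher, against 8.85% of all tested probes in either direction and 5.06% higher. *SERPING1* and *CLU* have 4 of the 17 probes each, read on the same RNA, so the counts of probes are not counts of genes. The mean log2 ratio was above 0 for 14 of the 17 probes (52.4% of all tested probes). Log2 ratios were above 0 on all 4 arrays for 9 of the 17 probes (18.3% of all tested probes) and below 0 on all 4 for none of them (14.5%). The Cy5 levels lay wholly above the Cy3 levels for 7 probes (7.62% of all), the Cy3 levels wholly above the Cy5 levels for 0 (6.48%), and the levels overlapped for 10. Probe 2 of *CFI* and probe 1 of *C6* and of *CD55* passed the filter through Cy5 alone, the dye in which their means were higher. Such probes add to the counts here and above through the filter. With both dyes required above background on all 4 arrays, 14 probes remained and 5 were called in limma.

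**Figure D1:**
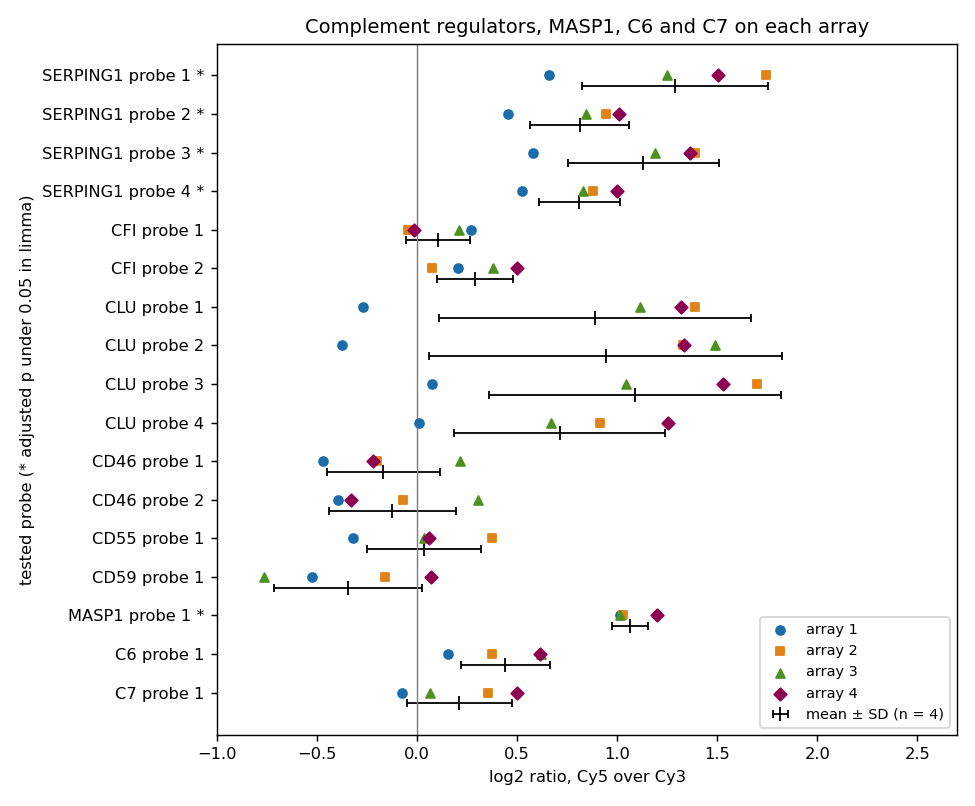
Log2 ratio of Cy5 over Cy3 (x axis) of each tested probe of the 9 genes (y axis) on arrays 1 to 4 (coloured points), with the mean and SD over the 4 arrays below them and an asterisk at an adjusted p under 0.05 in limma. The probes of *SERPING1* and *MASP1* lie above 0 on every array, those of *CLU* lie near or below 0 on array 1 alone, and those of *CD46*, *CD55* and *CD59* lie on both sides of 0.

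Among the soluble regulators, *SERPING1* encodes the C1 inhibitor, a serpin that traps the proteases of the classical and lectin pathways and also plasma kallikrein. On its brightest probe, probe 1, the normalised log2 signal of the Cy5 samples was 11.54, 11.94, 11.99 and 12.58 on arrays 1 to 4. The Cy3 samples had 10.88, 10.20, 10.74 and 11.08. The lowest Cy5 sample thus lay above the highest Cy3 sample. The log2 ratios were 0.66, 1.74, 1.25 and 1.50, with a mean of 1.29 ± 0.46 (SD, n = 4 arrays, adjusted p = 0.0344 in limma), or 2.44-fold (95% confidence interval 1.80 to 3.32). Array 1 had the smallest ratio.

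The other 3 probes of *SERPING1* also had their smallest ratio on array 1. Probe 2 had log2 ratios of 0.46, 0.94, 0.84 and 1.01 (mean 0.81 ± 0.25, SD, n = 4, limma adjusted p = 0.0342). Probe 3 had 0.58, 1.39, 1.19 and 1.36 (mean 1.13 ± 0.38, limma adjusted p = 0.0331), and probe 4 had 0.53, 0.88, 0.83 and 1.00 (mean 0.81 ± 0.20, limma adjusted p = 0.0298). Each probe was above background in both dyes on every array, and on each of them the Cy5 samples were all above the Cy3 samples. Probe 1 had the largest ratio on every array and probe 3 the next, so the probes agreed in direction and differed in size. The mean over the 4 probes was 1.01 ± 0.32 (SD, n = 4 arrays). Probes of a gene measure the same RNA samples and are not replicates of the comparison.

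*CLU* encodes clusterin, a secreted chaperone that binds the assembling terminal complex and keeps it from membranes. Of the probes described, its probe 1 had the brightest signal, and levels of different probes are not comparable as amounts of RNA. The 4 Cy5 samples had log2 signals of 13.93, 14.04, 14.12 and 14.22 on arrays 1 to 4, a narrow range. The Cy3 samples had 14.20, 12.65, 13.00 and 12.90. The Cy3 sample of array 1 lay among the Cy5 samples, and the other 3 Cy3 samples lay below all of them.

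The same sample stood apart on every probe of *CLU*. On probe 2 the Cy3 sample of array 1 had 14.04, within the Cy5 range of 13.67 to 14.21, and the other Cy3 samples had 12.43 to 12.87. On probe 3 it had 11.32, just under the lowest Cy5 sample at 11.40, and the others had 9.77 to 10.68. On probe 4 it had 9.03, within the Cy5 range of 9.01 to 9.23, and the others had 7.97 to 8.34. Array 1 was also the array on which *TNNT1* and *MYH7* stood apart, and whether this bears on *CLU* was not tested.

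No probe of *CLU* was called. Probe 1 had log2 ratios of -0.27, 1.39, 1.11 and 1.32 (mean 0.89 ± 0.78, SD, n = 4, limma adjusted p = 0.131). Probe 2 had -0.38, 1.33, 1.49 and 1.33 (mean 0.94 ± 0.88, limma adjusted p = 0.145). The means came from arrays 2, 3 and 4, as the ratio of array 1 was negative on both. Probe 3 had 0.07, 1.70, 1.04 and 1.53 (mean 1.09 ± 0.73, limma adjusted p = 0.0802), and probe 4 had 0.01, 0.91, 0.67 and 1.26 (mean 0.71 ± 0.53, limma adjusted p = 0.101). Without array 1, probe 1 (1.27, adjusted p = 0.0442) and probe 2 (1.38, adjusted p = 0.0376) were called in limma, and with median centring in place of loess all 4 were (adjusted p = 0.00386 to 0.00429). The mean fold change of probe 3, 2.12, was as large as that of *MASP1*, and its SD over arrays was 0.73 against 0.09.

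*CFI* encodes factor I, the protease that cuts C3b and C4b for good when a cofactor holds them. Probe 1 was above background in both dyes on every array, with log2 signals of 7.04, 6.94, 7.24 and 7.12 in Cy5 and 6.77, 6.99, 7.03 and 7.14 in Cy3. These ranges overlapped, and the log2 ratios of 0.27, -0.05, 0.21 and -0.01 had a mean of 0.10 ± 0.16 (SD, n = 4, limma adjusted p = 0.535), with a 95% interval of -0.12 to 0.33. Probe 2 was well above background in Cy5 on all 4 arrays and in Cy3 on 0. Its measured log2 ratios were 0.20, 0.07, 0.38 and 0.50 (mean 0.29 ± 0.19, limma adjusted p = 0.142), and it was not called. The measured fold was 1.22 (unadjusted 95% interval 1.03 to 1.44). As its Cy3 signals were not well above background, the difference of the means is given as a bound of 1.20-fold higher in Cy5. The bound makes no allowance for the spread over arrays. That bound sets the Cy5 mean against, on each Cy3 array, the lowest signal among probes well above background or the probe's own, whichever was higher. With plain background subtraction probe 2 was at 1.13 (limma adjusted p = 0.0448), and with median centring at -0.05. Probes 3 and 4 were not well above background in either dye on any array, with scanner signals of 42 to 56 in Cy5 and 46 to 57 in Cy3, and were not tested.

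**Figure D2:**
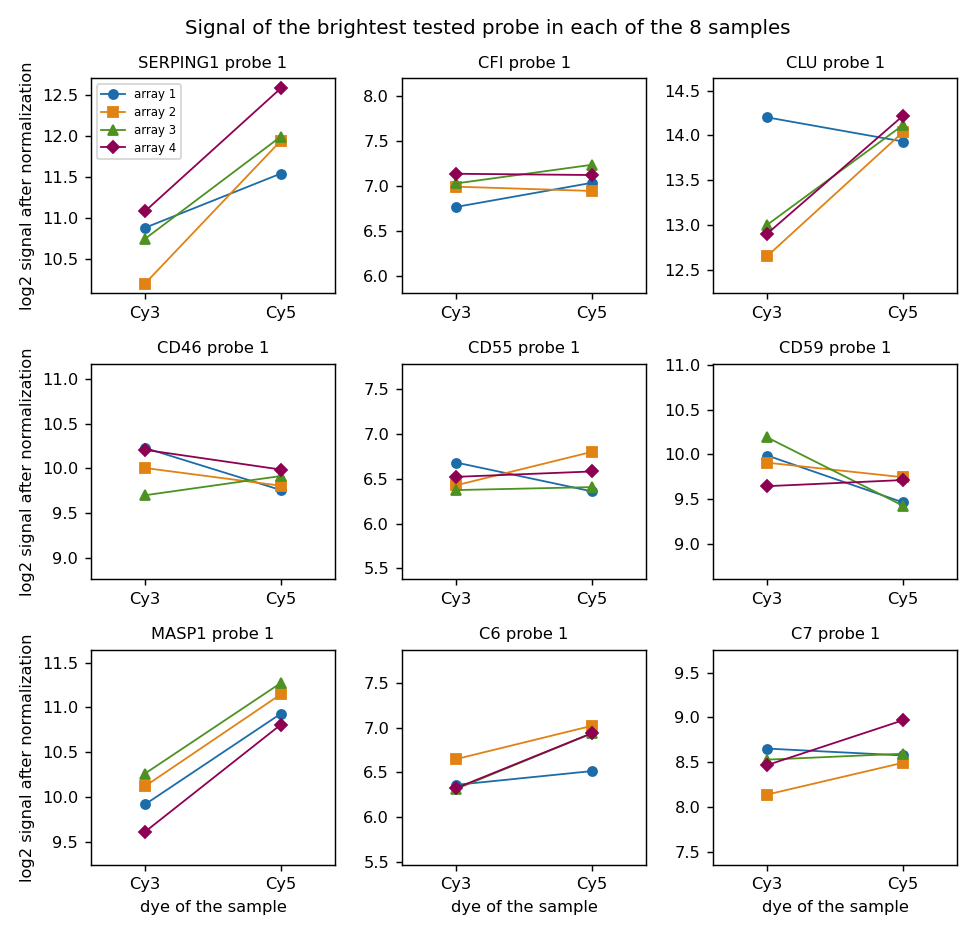
Normalised log2 signal (y axis, with its own range in each panel) of the brightest tested probe of each of the 9 genes in the Cy3 and the Cy5 sample (x axis) of arrays 1 to 4, with a line joining the 2 samples of an array. All 4 lines rise for *SERPING1* and *MASP1*, and for *CLU* the Cy3 sample of array 1, at 14.20, lies apart from the other Cy3 samples at 12.65 to 13.00.

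The membrane-bound regulators protect the cell that carries them. *CD46* encodes a cofactor for factor I, *CD55* the decay-accelerating factor that takes convertases apart, and *CD59* a small anchored protein that keeps the terminal pore from forming. None of them was called in limma, and all had overlapping levels in the 2 dyes. *CD46* probe 1 had log2 signals of 9.76, 9.81, 9.91 and 9.99 in Cy5 and 10.23, 10.00, 9.70 and 10.21 in Cy3. Its log2 ratios of -0.47, -0.20, 0.21 and -0.22 had a mean of -0.17 ± 0.28 (SD, n = 4, limma adjusted p = 0.459), with a 95% interval of -0.47 to 0.13. Only array 3 had the Cy5 sample above the Cy3 sample. Probe 2, at -0.40, -0.07, 0.30 and -0.33, had the same signs (mean -0.12 ± 0.32, limma adjusted p = 0.623, interval -0.45 to 0.20).

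*CD55* was dim. Probe 1 had log2 ratios of -0.32, 0.37, 0.03 and 0.06 (mean 0.04 ± 0.28, SD, n = 4, limma adjusted p = 0.892, 95% interval -0.27 to 0.34). Arrays 1 and 2 lay on opposite sides of 0, and the mean was -0.08 without array 2. Probe 2 was above background on 2 arrays in Cy5 and on 1 in Cy3 and was not tested, with measured log2 ratios of -0.13 to 0.02. *CD59* had log2 signals of 9.46, 9.74, 9.43 and 9.71 in Cy5 and 9.99, 9.91, 10.19 and 9.65 in Cy3. Its log2 ratios were -0.52, -0.16, -0.76 and 0.07, with the lowest mean of the 9 genes at -0.35 ± 0.37 (SD, n = 4, limma adjusted p = 0.227, 95% interval -0.71 to 0.02). Array 4 had the opposite sign to the rest. With median centring, which moved the median of all tested probes to 0.24, *CD46* was at 0.42 and 0.43, *CD59* at 0.23 and *CD55* at -0.16, so the signs of these 3 genes rest on the scaling.

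Of the lectin pathway, *MASP1* encodes the protease that autoactivates on bound collectins and ficolins and sets off the pathway. The Cy5 samples had log2 signals of 10.93, 11.15, 11.27 and 10.81 on arrays 1 to 4, and the Cy3 samples 9.92, 10.12, 10.26 and 9.61. The dye groups did not overlap, and within each dye the order of the arrays was the same. The log2 ratios of 1.01, 1.03, 1.01 and 1.20 had a mean of 1.06 ± 0.09 (SD, n = 4, limma adjusted p = 0.0139), or 2.09-fold (95% confidence interval 1.83 to 2.38). Its p was the 25th smallest of the 32606. The value rests on the only probe of the gene, and which transcript forms of *MASP1* that probe reads was not tested. C1 inhibitor, the product of *SERPING1*, is known to inhibit the *MASP1* protease, and the 2 genes were higher in the same dye.

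Of the terminal pathway, *C6* and *C7* encode the components that join C5b in turn and carry the complex to the membrane. Bovine *C6* and *C7* are near neighbours on 1 chromosome, with 1 annotated gene, *MROH2B*, between them in the RefSeq annotation of assembly ARS-UCD2.0. Probe 1 of *C6* was well above background on all 4 arrays in Cy5 and on 1 array in Cy3, so most of its Cy3 signals were at the limit of detection. The log2 signals were 6.51, 7.02, 6.94 and 6.94 in Cy5 and 6.36, 6.65, 6.32 and 6.32 in Cy3. The lowest Cy5 sample lay below the highest Cy3 sample, so the dye groups overlapped.

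The log2 ratios of *C6* were 0.15, 0.37, 0.62 and 0.61, above 0 on 4 of 4 arrays (mean 0.44 ± 0.22, SD, n = 4, limma adjusted p = 0.0761). Its size and its call depended on how the background was treated. Without background correction it was 0.54 (adjusted p = 0.0493 in limma), with plain subtraction 1.07 (adjusted p = 0.0311) and with the scanner-processed signals 2.10 (adjusted p = 0.0159). Probe 2 was above background on 2 arrays in Cy5 and 0 in Cy3, probe 3 on none in either dye, and neither was tested. Their measured log2 ratios, from signals at or near background, averaged 0.005 and 0.07. *C7* was above background in both dyes throughout, with log2 signals of 8.57, 8.49, 8.59 and 8.97 in Cy5 and 8.65, 8.14, 8.53 and 8.47 in Cy3. These overlapped, and its log2 ratios of -0.08, 0.36, 0.07 and 0.50 had a mean of 0.21 ± 0.26 (SD, n = 4, limma adjusted p = 0.332, 95% interval -0.08 to 0.50). With median centring *C7* was called at 0.64 (limma adjusted p = 0.0124).

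Ordered by the mean over tested probes, the log2 ratios ran from *MASP1* (1.06), *SERPING1* (1.01) and *CLU* (0.91) through *C6* (0.44), *C7* (0.21), *CFI* (0.20) and *CD55* (0.04) to *CD46* (-0.15) and *CD59* (-0.35). Neighbours in this order differed by less than the larger of their SDs over arrays, which ran from 0.09 for *MASP1* to 0.71 for *CLU*. The value of *CFI* includes probe 2, which was known only as a bound, and that of *C6* rests on a Cy3 signal above background on 1 array, so the places of both are uncertain. No difference between genes was tested. Array by array, the median log2 ratio over the 17 probes was 0.07, 0.88, 0.67 and 1.00, lowest on array 1.

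Some or all of the calls were lost when 1 array was left out, in fits that had 1 array fewer. Without array 1, *MASP1* (limma adjusted p = 0.0449) and probes 1 and 3 of *SERPING1* (0.0449 and 0.0377) were still called, and probes 2 and 4 were at 0.0508. Without array 2, 3 or 4, 0 of the 17 probes were called, with adjusted p = 0.0906 to 0.114 for *SERPING1* and 0.0544 to 0.0710 for *MASP1*. The log2 ratios themselves stayed above 0 for every probe of both genes, which was fixed in advance, as each was above 0 on all 4 arrays. Among genes that were not called, leaving out 1 array moved *C7* between 0.11 and 0.31, *CD59* between -0.48 and -0.21, *CD46* probe 1 between -0.30 and -0.07 and probe 2 between -0.27 and -0.03, and *CFI* probe 1 between 0.05 and 0.15. Over all tested probes these fits called 115 without array 1, 38 without array 2, 5 without array 3 and 5 without array 4, against 1083 with all arrays.

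**Figure D3:**
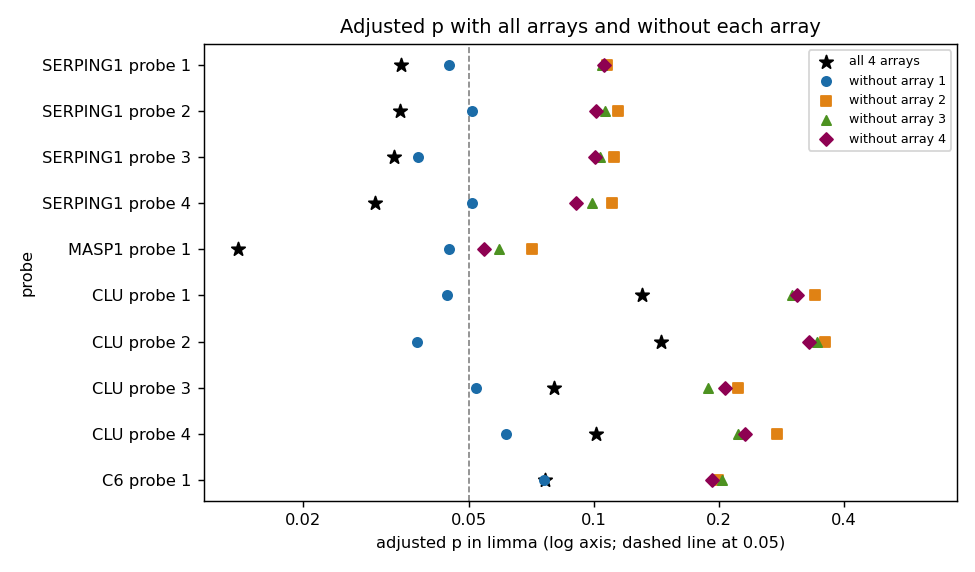
Adjusted p in limma (x axis, log scale, dashed line at 0.05) of the probes of *SERPING1*, *MASP1* and *CLU* and probe 1 of *C6* (y axis), with all 4 arrays (stars) and without each array in turn (coloured points). Leaving out array 1 brought 2 probes of *CLU* under 0.05, and leaving out any other array took *SERPING1* and *MASP1* above it.

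The rest of the complement system was described by 38 other genes in 5 lists by stage. Of these, 32 had a probe and 25 a tested probe, each gene being given by its brightest tested probe. In limma 6 were called higher in Cy5 and 0 lower, 24% of the 25 against 3.32% of all tested probes. At an unadjusted p under 0.05, 15 were higher and 1 lower, where 24.7% of all tested probes passed. The median log2 ratio was 0.36, and 21 of 25 were above 0, against 52.4% of all tested probes. Some of these genes, such as *C4BPA*, *VSIG4* and *C5AR1*, passed the filter through Cy5 alone and add to these counts through it. With both dyes required above background on all arrays, 18 of the genes remained and 7 were called higher. With plain background subtraction 9 were called higher and 1 lower, and with an intensity trend and a robust prior 8 higher and 1 lower. The count fell when 1 array was left out, to 3 without array 1, 1 without array 2 and 0 without array 3 or array 4.

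The calls came mostly from the classical and alternative pathways, where 4 of 10 tested genes were higher and the median was 1.21. *C4A*, the substrate of both the classical and the lectin proteases, was higher in Cy5 by 2.37 ± 0.38 on the log2 scale (SD, n = 4, limma adjusted p = 0.0102), at 2.80, 2.07, 2.03 and 2.59 on the 4 arrays. Of its 5 tested probes 3 were called, and the uncalled ones were at 0.42 and 0.79. *CFD*, factor D, the protease that cuts factor B, was at 1.49 ± 0.26 (limma adjusted p = 0.0146). *C1S*, the protease of the C1 complex and a target of C1 inhibitor, was at 1.28 ± 0.56 (limma adjusted p = 0.0428), with 0.64 on array 1 and 1.17 to 2.00 on the others. Factor B (*CFB*), named after its value was seen, was at 1.54 ± 0.71 (limma adjusted p = 0.0441), and its other 2 tested probes, at 1.01 and 0.15, were not called. *C3*, at 1.80 ± 1.00, was not called (limma adjusted p = 0.0568), and its 8 tested probes ran from 0.08 to 1.80.

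Beside *MASP1*, the lectin list had 3 tested genes. The scavenger collectin gene *COLEC12* was higher in Cy5 on every array, at 0.66 ± 0.04 (SD, n = 4, limma adjusted p = 0.0262). The mannose-binding lectin gene *MBL2* was at -1.33 ± 0.75 (limma adjusted p = 0.0596) on the 1 of its 3 probes that was tested. On that probe 4 of 4 arrays were below 0, and the Cy3 samples were all above the Cy5 samples. *MBL2* was not called, and it was the only tested complement gene at an unadjusted p under 0.05 below 0. Its value rests on that probe alone, and whether the probe reads *MBL2* RNA was not tested. Summed over the 3 tested genes of this list, the signal was 8984 to 18423 in Cy5 and 25843 to 41393 in Cy3. *MASP2* was not well above background in either dye on any array.

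The other terminal genes with a tested probe were *C9* (0.05) and *C8B* (0.03), both dim and not called. Of the 5 other regulators tested, such as *C4BPA* and *VSIG4*, 0 were called in limma, with log2 ratios of -0.15 to 0.53 and 2 at an unadjusted p under 0.05. Of the 5 receptors, the integrin subunit gene *ITGB2*, named after its value was seen, was higher in Cy5 by 0.49 ± 0.12 (SD, n = 4, limma adjusted p = 0.0428). Of its 6 tested probes 3 were called, at 0.49 to 1.22, and 3 were not, at 0.03 to 0.20. The integrin subunit gene *ITGAM* of the same list was at -0.06 and not called (limma adjusted p = 0.674), and *ITGAX* had no probe.

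**Figure D4:**
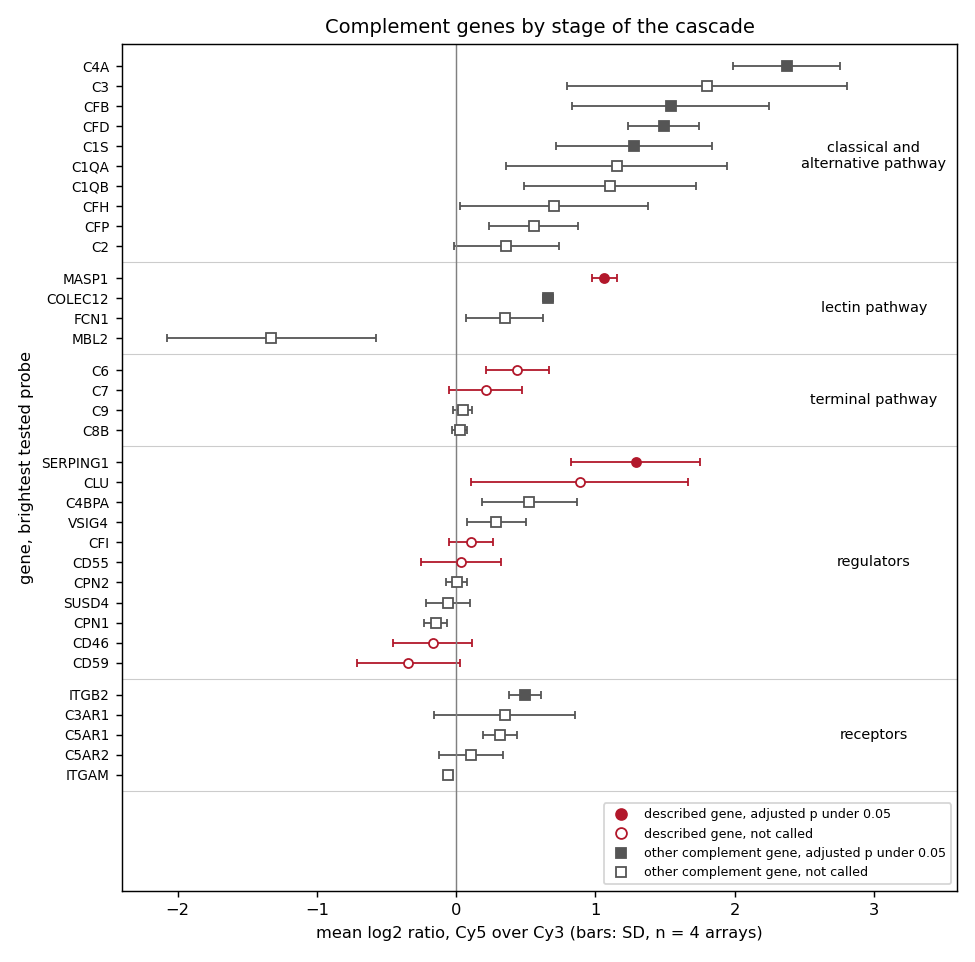
Mean log2 ratio of Cy5 over Cy3 (x axis, bars SD over 4 arrays) of the brightest tested probe of each complement gene (y axis), grouped by stage of the cascade, with the 9 genes described in red and the others in grey, filled at an adjusted p under 0.05 in limma. All filled points lie to the right of 0, 4 of them in the classical and alternative pathways, and the 3 membrane-bound regulators *CD46*, *CD55* and *CD59* lie around 0.

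Markers of cell types that express complement genes were measured on the same arrays. In bulk muscle, fewer cells of a type and less RNA per cell cannot be told apart. Of 9 macrophage markers 7 were tested, and 0 were called in limma. Against 24.7% of all tested probes, 5 of these markers were at an unadjusted p under 0.05, counted in either direction. Their mean log2 ratio was 0.18, 0.82, 0.45 and 0.97 on arrays 1 to 4, and their summed signal was 6759 to 15540 in Cy5 and 3647 to 6098 in Cy3. *C1QA* (1.15) and *C1QB* (1.11), which are also complement genes, were the highest of these markers. *CD163* was at 0.50 (limma adjusted p = 0.0508), *CD68* at 0.08 and *CD14*, the lowest, at -0.04. By array *CD163* fell from 0.71 on array 1 to 0.33 on array 4, so the markers did not share 1 order of the arrays. The part of macrophage RNA in the ratios of *SERPING1*, *CLU* or *MASP1* was not tested.

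Of 9 tested fibroblast markers, the collagen genes *COL1A1* (-2.05) and *COL3A1* (-1.68) were lower in Cy5 (limma adjusted p = 0.0290 and 0.0368) and the other 7 were not called, with a list median of 0.00 and 5 of the 9 at an unadjusted p under 0.05. *COL1A2* (-1.34) and *LUM* (-0.77) were below 0 on 4 of 4 arrays, with all Cy3 samples above all Cy5 samples. The uncalled markers above 0 were *FBLN1* (0.88), *PDGFRA* (0.49), *DCN* (0.42), *MFAP5* (0.30) and *DPT* (0.00). Summed over the list, the signal was 42454 to 72819 in Cy5 and 66016 to 114520 in Cy3, ranges that overlap. The 6 tested hepatocyte markers had a median of 0.03 and 0 calls in limma, with 0 at an unadjusted p under 0.05. Of the other lists, the counts of tested markers were 5 for adipocytes, 6 for endothelial cells, 3 for lymphocytes, 2 for blood and 4 for Schwann cells, with 0 calls in limma and 1, 0, 1, 0 and 2 at an unadjusted p under 0.05. Over all tested probes the share at an unadjusted p under 0.05 was 24.7%. The part of the cells of these lists in the described ratios was not tested.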

How the data were processed

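The intensity values were deposited by the authors as scanner output, in which, per the file headers, Feature Extraction 10.7.3.1 of Agilent had read the median signal and median local background of each spot without correction. It also made processed signals by background subtraction and dye normalization, and the log10 values of the deposited series table were log10 ratios of Cy5 over Cy3 of those signals, from which they differed by 0, and each array's median was 0. Flags, gene accessions and other columns were used as deposited. The array design was annotated against the bovine build Btau_3.1, so no coordinates are given. By the methods, a t-test in GeneSpring was used with limits of 0.05 for p and 1.3 for fold change.

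The median signals were corrected for background (normexp, offset 50), ratios were normalized by loess within each array with control spots at weight 0, outlier spots, 7 to 14 on an array, were dropped and repeat spots of a probe averaged. Log2 ratios of the 4 arrays were tested against 0, two-sided, in limma 3.58.1 (lmFit, eBayes) under R 4.3.3 with the package data.table (version 1.17.8). Levels per dye are log2 signals after loess and Aquantile normalization, in which a dye bias is not balanced out. A tested probe needed values on at least 3 arrays. Probes were named through their accession in the RefSeq gene table, which named 23492 probes, and no probe, promoter or protein sequences were used here. The procedure was tested on simulated data.

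The genes, the complement lists and the cell type markers were chosen with earlier results of these data known. All 9 genes were named with every probe, and of the other complement genes the 4 called with the smallest p. Any other complement gene or marker was named after its value was seen. All arrays lay on 1 slide, so no batch could be set as a block. Alternatives covered background correction, scaling, filters, the prior, the methods' t-test and leaving out each array. The number of arrays limits the precision. The LIM arrays were not analysed here.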

Additional observations from a re-analysis of the deposited data

Results flagged for a closer look

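Of 17 probes examined over the 4 arrays, 3 had an array far from the others, by Dixon's 95% limit on the gap to the nearest array as a share of the whole range. Chance flags about 1 in 20 such groups. *CLU* probe 1 had a log2 ratio of -0.27 on array 1 (gap 0.836 of the range), and *CLU* probe 2 had -0.38 on the same array (0.913 of the range), where the other arrays were between 1.11 and 1.49. In both, the Cy3 sample of array 1 was the one that differed in level. *MASP1* had 1.20 on array 4 (0.918 of the range), while the other 3 arrays lay between 1.01 and 1.03. The causes were not tested.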

How the results depend on the processing

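Of the 17 tested probes, 5 were called. Median centring in place of loess called 10 of them and 10725 of all tested probes (93.4% of calls higher against 59.3%), with the median of all probes at 0.24, and turned *CD46* to 0.42 and 0.43, *CD55* to -0.16, *CD59* to 0.23 and *CFI* probe 2 to -0.050. The study's criterion gave 10 and 4707, the methods' t-test after adjustment 0 and 0, and an intensity trend with a robust prior 6 and 1666. Leaving out 1 array gave 0 to 5 of the described probes, 5 to 115 of all and 0 to 3 of the other complement genes, and *CD55* ran from -0.076 (without array 2) to 0.16. The other complement genes called, 6 in all, became 10 with plain subtraction (9 higher), 12 with median centring and 0 with the t-test. These were applied to that count after the data were seen, as was a filter met in either dye, which called 5 of the 17. The median log2 ratio of 0.71 became 0.25 without a filter and 0.21 with 1 value per gene. *SERPING1* and *MASP1* stayed above 0 and called under the remaining settings. The causes were not tested, and for dim probes the signal over background limits the values. The test of the ratios within arrays is itself paired, so no replicate block was added. The planned search of promoters for motifs was not run, as no promoter sequences were used here.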
